A study of Mus musculus with 8 samples.

Results

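Polyamines (putrescine, spermidine and spermine) are small, positively charged molecules that bind nucleic acids and support translation and growth. The rows of the normalized count table named *Odc1*, *Amd1*, *Amd2*, *Srm*, *Sms*, *Smox*, *Sat1*, *Paox*, *Oaz1* and *Azin1*, the genes that make, oxidize, acetylate and control polyamines, were selected by gene symbol. These are 10 of the 55401 genes in the table, and all 10 passed the filter on low values. They were compared between 4 tibialis anterior (TA) muscles of *mdx5cv* mice, a dystrophin-deficient model of Duchenne muscular dystrophy, and 4 TA muscles of wild-type (WT) mice. All mice were 6 mo old and on the C57/Bl6 strain, with no treatment named, and the methods state that males were used unless noted otherwise. The *mdx5cv* mutation in *Dmd* is carried in every cell, and the whole muscle was measured, so in these bulk samples fewer cells of a type and less RNA per cell cannot be told apart. The labels do not say whether each muscle came from its own mouse, and the p-values measure only the spread between these samples.

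In the textbook pathway, ornithine decarboxylase (ODC1) makes putrescine and adenosylmethionine decarboxylase (AMD1) supplies the aminopropyl donor. Spermidine synthase (SRM) and spermine synthase (SMS) use that donor to extend putrescine to spermidine and then to spermine. Spermine oxidase (SMOX) turns spermine directly back to spermidine, releasing hydrogen peroxide. The other way back runs through acetylation by SAT1 and oxidation of the acetylated product by polyamine oxidase (PAOX). Antizyme (OAZ1) binds ODC1 and directs it to the proteasome, and antizyme inhibitor (AZIN1) binds antizyme in its place. In skeletal muscle, *Smox* is known as a gene that is repressed in several forms of atrophy.

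Several of these genes are controlled at translation through sequences in their mRNA, which transcript levels do not measure, and *Amd1* has near-identical copies that bear on its counts. The coding sequences of *Amd1*, with 8 exons, and of *Amd2*, with 1 exon, are each 1005 bases long with the stop codon and are identical at 1004 positions (99.9%). The stretch of 120 coding bases that holds the differing base (coding positions 709 to 828, minus strand, GRCm38) is shown because it is the only part of the coding sequence where a read can tell the genes apart, with that base in capitals. The first is at chr10:40290154-40290273 and the second at chr10:35710732-35710851.
Amd1: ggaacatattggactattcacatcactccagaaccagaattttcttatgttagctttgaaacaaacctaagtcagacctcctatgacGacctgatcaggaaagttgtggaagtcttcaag
Amd2: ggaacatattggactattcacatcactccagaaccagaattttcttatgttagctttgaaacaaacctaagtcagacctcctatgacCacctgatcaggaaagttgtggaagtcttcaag

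The next sequences are shown because they are the elements through which polyamines are known to regulate translation of *Amd1* and *Oaz1*. The *Amd1* mRNA carries a short upstream open reading frame of 7 codons with its stop (21 bases, chr10:40302155-40302175, minus strand), with the start and stop codons in capitals. The same 21 bases stand ahead of the *Amd2* coding sequence at chr10:35711860-35711880. The *Oaz1* mRNA (chr10:80828280-80828309, plus strand) has an in-frame stop after 68 codons, and the ribosome reads on only when it skips 1 base there, after which 159 codons follow. The capitals mark the codon before the stop and the stop codon.
Amd1 upstream open reading frame: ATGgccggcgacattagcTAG
Oaz1 frameshift site: cctcggtggtgcTCCTGAtgtccctcaccc

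The 200 bases upstream of the start sites of *Amd1*, *Smox* and *Sat1* (RefSeq, GRCm38.p6) are given because these genes had the largest differences between the groups among the 10. They lie at chr10:40302189-40302388 (minus strand), chr2:131491662-131491861 (plus strand) and chrX:155216450-155216649 (minus strand). The *Smox* stretch is upstream of the RefSeq start only. In GENCODE, used for the gene coordinates below, *Smox* starts earlier, at chr2:131491496, and the stretch lies inside the gene. Capitals mark GGGCGG on either strand, the GC box, and TATATAA on the printed strand only, a form of the TATA box.
Amd1 promoter: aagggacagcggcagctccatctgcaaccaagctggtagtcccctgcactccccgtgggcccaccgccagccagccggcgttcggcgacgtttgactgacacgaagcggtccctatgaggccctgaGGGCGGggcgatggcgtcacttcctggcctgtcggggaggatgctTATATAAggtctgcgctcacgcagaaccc
Smox promoter: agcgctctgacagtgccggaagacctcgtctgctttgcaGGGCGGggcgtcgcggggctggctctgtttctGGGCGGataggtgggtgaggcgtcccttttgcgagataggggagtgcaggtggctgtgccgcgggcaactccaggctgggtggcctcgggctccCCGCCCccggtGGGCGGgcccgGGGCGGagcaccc
Sat1 promoter: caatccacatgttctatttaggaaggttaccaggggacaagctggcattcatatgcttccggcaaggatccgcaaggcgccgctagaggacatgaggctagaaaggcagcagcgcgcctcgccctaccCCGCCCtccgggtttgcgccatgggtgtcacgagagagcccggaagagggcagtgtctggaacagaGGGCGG

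The promoter table had 10 windows for 8 of the 10 genes, and *Srm* and *Azin1* were not among them. A gene was counted when any of its windows held a match, whereas the percentages are shares of single windows. GGGCGG was present in 6 of these 8 (*Odc1*, *Amd1*, *Sms*, *Smox*, *Sat1* and *Paox*) and in 31.0% of all 32851 windows of 200 bases. The *Smox* window, with a GC content of 72.0% against a median of 53.0% over all windows, held 5 matches. The *Amd1* window (GC content 65.0%) held 1 GGGCGG and, on the printed strand, 1 TATATAA, which occurs on either strand in 2.51% of all windows. CACGTG, the E-box bound by Myc and Max, was found on either strand in the *Sms* window and in 5.26% of all windows. CAGCTG, an E-box bound by myogenic factors, stood in 10.9% of all windows and TATAAA in 9.96%, and neither was in the windows of these 8 genes. A match is a description of the letters and not evidence of binding.

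The libraries were stranded total RNA after depletion of ribosomal RNA, with 13862559 to 14921057 reads on genes in WT and 13175524 to 14502624 in *mdx5cv*. The authors divided the reads of each muscle by a size factor, from 0.873 to 0.944 in WT and from 1.06 to 1.25 in *mdx5cv*, so that the scaling bears on small changes. Values below are these normalized counts, and log2 fold changes are *mdx5cv* minus WT on the log2(normalized count + 1) scale, which understates changes of low genes. A gene was called when its adjusted p in limma was under 0.05 over the 13677 genes tested. Of all these genes, 20.9% were called higher and 20.1% lower. The muscle fiber markers (*Ckm*, *Acta1*, *Ttn*, *Des*, *Myh4*, *Pvalb*) summed to 2866049 to 3066864 in WT and 1972323 to 2649877 in *mdx5cv*, with 1 of 6 (*Ckm*) called lower. Macrophage markers were called higher for 5 of 6 and lower for 1 (*Cd163*), with sums of 345 to 544 in WT and 1363 to 3251 in *mdx5cv*. Markers of regenerating fibers were called higher for 6 of 6, with sums of 198 to 229 and 2514 to 9398, and *Mymk* and *Chrng* were at 0 in 3 of the 4 WT muscles. These genes, and *Itgam* among the macrophage markers (means of 3.88 in WT and 52.4 in *mdx5cv*), passed the filter on low values only through their *mdx5cv* muscles. The calls of *Mymk*, *Chrng* and *Itgam* are therefore no support for a change. Fibroblast markers were called higher for 5 of 6, with sums of 5726 to 8367 in WT and 18845 to 33585 in *mdx5cv*, and markers of slow and oxidative fibers for 4 of 6, with 1 lower (735 to 783 and 1178 to 2566). The lower slow and oxidative marker was *Myl3* (means of 357 in WT and 38.7 in *mdx5cv*, log2 fold change -3.56), and *Myh7* was not called. Endothelial markers were called lower for 5 of 5 (2513 to 3045 and 1536 to 1968), erythrocyte markers for 3 of 5 (694 to 1240 and 342 to 733), and adipocyte (58.4 to 464 and 14.8 to 51.9) and nerve and Schwann cell markers (437 to 824 and 275 to 432) each for 3 of 4 tested. Of the adipocyte markers, *Cidec* (means of 36.5 in WT and 7.39 in *mdx5cv*) and *Lep* (41.6 and 3.67) passed that filter only through their WT muscles. Their calls are no support for a change either. The *mdx5cv* replicate 4 stood apart, with the highest macrophage, regenerating fiber, fibroblast and slow and oxidative fiber sums and the lowest muscle fiber sum. The part of these cell types in the results below was not tested. *Dmd* itself was lower, with 6954 ± 857 in WT muscle against 3964 ± 388 (SD, n = 4) and a log2 fold change of -0.81.

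Of the 10 polyamine genes, *Amd1*, *Smox*, *Sms* and *Odc1* were lower in *mdx5cv* muscle, *Sat1* was higher, and the other 5 were not called. Among all genes tested, 40.9% were called in either direction, 20.9% as higher and 20.1% as lower, so that 5 called members of 10 is a share near that of all genes. Requiring also a log2 fold change of 1 or more in size, 3 members were called lower (*Amd1*, *Smox* and *Sms*) and 1 higher (*Sat1*), where 3.27% and 10.3% of all genes were (13.6% in either direction). The members were chosen with earlier results of these data known, so these shares are a description and not a test of the set. These same 4 genes had no overlap between the groups, a pattern that 19.8% of all genes showed in the lower and 20.3% in the higher direction (40.1% in either). The median log2 fold change of the 10 was -0.29, beside 0.00 over all genes tested.

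**Figure D1:**
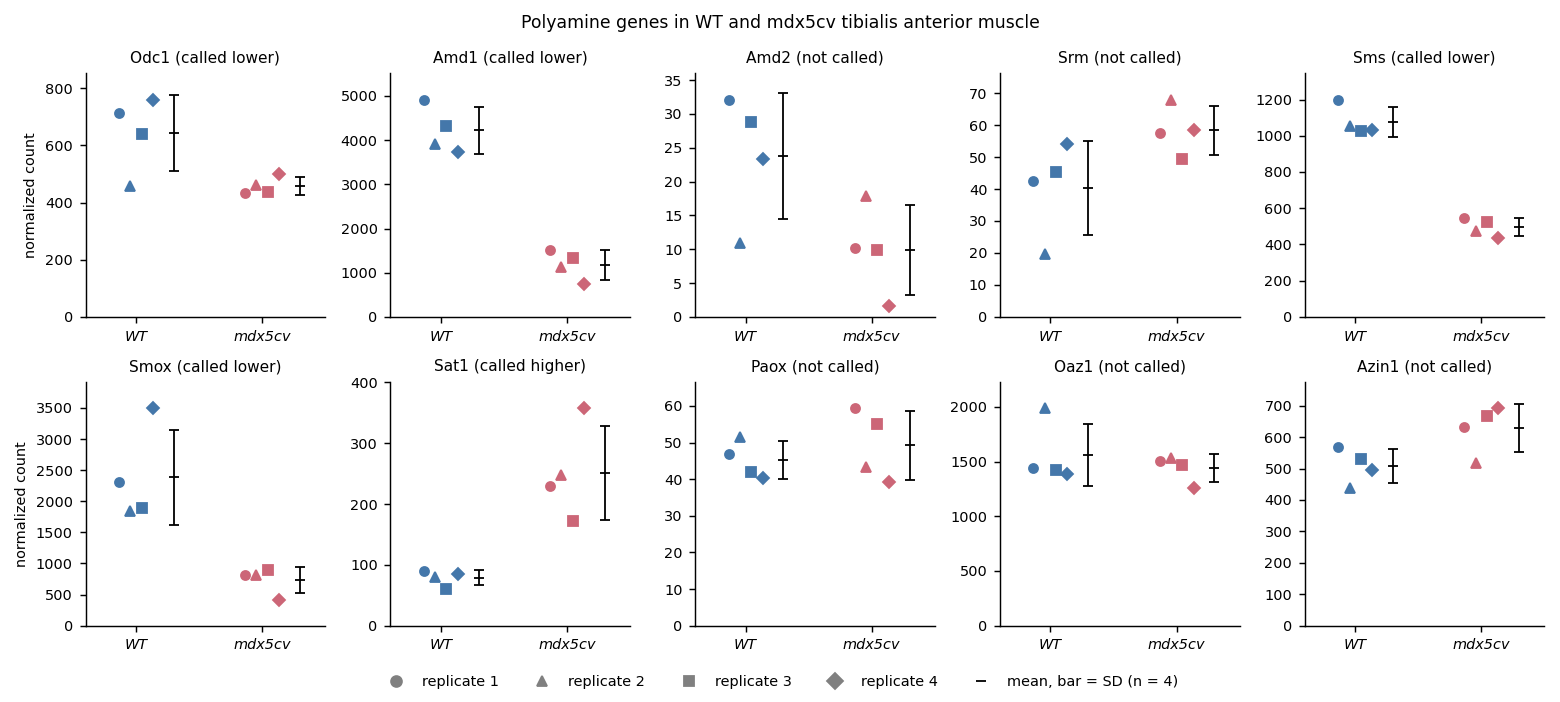
Normalized count (y axis, from 0, a scale of its own in each panel) of each polyamine gene in the 4 WT and 4 *mdx5cv* muscles, with 1 marker shape for each replicate and a bar for the mean and SD (n = 4). The groups do not overlap for *Amd1*, *Sms*, *Smox* and *Sat1*, and *mdx5cv* replicate 4 is the lowest of all 8 muscles for *Amd1*, *Sms* and *Smox* and the highest for *Sat1*.

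Among the decarboxylases, *Amd1* showed the largest decrease of the 10 genes. *Amd1* (chr10:40287458-40302186, minus strand) had normalized counts of 4914, 3906, 4318 and 3737 in WT replicates 1 to 4. In *mdx5cv* replicates 1 to 4 it had 1506, 1135, 1327 and 734. The highest *mdx5cv* muscle was thus below every WT muscle, and *mdx5cv* replicate 4 was the lowest. The means were 4219 ± 524 and 1176 ± 331 (SD, n = 4), a 3.59-fold decrease with a log2 fold change of -1.88 (SE 0.18, adjusted p = 7.91e-06). Over all alternative settings the log2 fold change of *Amd1* ranged from -2.02 to -1.53 and stayed past the threshold.

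*Amd2* (chr10:35708675-35711892, minus strand), the intronless copy, is counted from few reads. Its normalized counts were 32.1, 11.0, 28.7 and 23.3 in WT and 10.2, 17.9, 9.91 and 1.60 in *mdx5cv*, from 2 to 28 reads a muscle. WT replicate 2 fell among the *mdx5cv* muscles, so the groups overlapped. The log2 fold change was -1.39 (SE 0.54, adjusted p = 0.0534), which did not pass the threshold, and without WT replicate 2 or without *mdx5cv* replicate 2 it did. Without *mdx5cv* replicate 4 it was -0.81 (adjusted p = 0.121), and the *mdx5cv* mean of *Amd2*, 9.90, is itself under the filter of 10. Of the 50-base words in *Amd2* transcripts, 85.7% are also in another annotated gene, chiefly *Amd1*, and the share is 78.1% for *Amd1*, so *Amd2* reads are uncertain. The copies of *Amd1* together held 10 to 54 reads a muscle against 919 to 4288 for *Amd1*, and the sum of *Amd1* and *Amd2* had the same log2 fold change of -1.88 (adjusted p = 8.48e-06).

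*Odc1* (chr12:17544794-17551505, plus strand), the first enzyme of the pathway, decreased less. Its normalized counts were 712, 459, 640.2 and 759.5 in WT and 432, 461, 436 and 499 in *mdx5cv*. WT replicate 2 lay within the *mdx5cv* range and the other WT muscles lay above it. The means of 642 ± 132 and 457 ± 31.1 (SD, n = 4) gave a log2 fold change of -0.47 (SE 0.14, adjusted p = 0.0194). The call of *Odc1* was lost in 6 of 20 alternatives. With equal totals for all muscles the log2 fold change of *Odc1* was -0.11 (adjusted p = 0.622). The adjusted p was 0.0643 without WT replicate 1, 0.0564 without WT replicate 4 and 0.0524 without *mdx5cv* replicate 1.

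Of the aminopropyl synthases, *Sms* decreased and *Srm* was not called. *Sms* (chrX:157443855-157492287, minus strand), which makes spermine, had normalized counts of 1199, 1055, 1024 and 1030 in WT. In *mdx5cv* the counts of *Sms* were 548, 476, 525 and 436, about as tight as in WT and with no overlap. From 1077 ± 82.4 to 496 ± 50.4 (SD, n = 4), *Sms* was 2.17-fold lower, with a log2 fold change of -1.12 (SE 0.11, adjusted p = 6.20e-06) and a range from -1.21 to -0.76 over the alternatives, all past the threshold. *Sms* shares 17.5% (1058) of its 50-base words with 27 other genes. Of these words, 1052 are in *Sms-ps*, which held 1 to 12 reads a muscle. The 27 genes together held 797 to 1528 reads a muscle, against 505 to 1046 for *Sms*.

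*Srm* (chr4:148591503-148594993, plus strand), which makes spermidine, was expressed at a low level. Its normalized counts were 42.4, 19.7, 45.3 and 54.0 in WT and 57.4, 67.9, 49.5 and 58.3 in *mdx5cv*. The highest WT muscle lay above the lowest *mdx5cv* muscle. The log2 fold change of *Srm* was 0.60 (SE 0.27, 95% confidence interval 0.02 to 1.18, adjusted p = 0.0904) and was not called. It was called under equal totals, at 0.95 (adjusted p = 0.0155), and without WT replicate 4, at an adjusted p of 0.0424, and it fell to 0.30 (adjusted p = 0.214) without WT replicate 2, the lowest WT muscle.

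Of the catabolic enzymes, *Smox* decreased and *Sat1* increased. *Smox* (chr2:131491496-131525922, plus strand) had normalized counts of 2314, 1845, 1893 and 3491 in WT and 817, 811, 890 and 415 in *mdx5cv*. WT replicate 4 was far above the other WT muscles and *mdx5cv* replicate 4 well below its group, and the groups did not overlap. The means of 2386 ± 767 and 733 ± 215 (SD, n = 4) differed 3.25-fold, with a log2 fold change of -1.71 (SE 0.24, adjusted p = 0.00012). The change of *Smox* was -1.46 without *mdx5cv* replicate 4 and -1.51 without WT replicate 4, both past the threshold. No 50-base word of *Smox* is in another gene.

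*Sat1* (chrX:155213132-155216449, minus strand), which acetylates spermidine and spermine, was the only one of the 10 called higher. Its normalized counts were 89.4, 80.1, 60.8 and 84.7 in WT and 230, 248, 172 and 357 in *mdx5cv*. Every *mdx5cv* muscle was above every WT muscle, and *mdx5cv* replicate 4 was the highest. The means of 78.8 ± 12.6 and 252 ± 77.4 (SD, n = 4) gave a 3.20-fold increase, a log2 fold change of 1.63 (SE 0.20, adjusted p = 4.47e-05), with a range from 1.45 to 1.99 over the alternatives. The same replicate also had the highest summed macrophage markers (3251, against 1363 to 1873 in the other *mdx5cv* muscles). It was highest too for regenerating fibers (9398, against 2514 to 5317), fibroblasts (33585, against 18845 to 25028) and slow and oxidative fibers (2566, against 1178 to 1462). The slow and oxidative sum mixes directions, since *Myl3* in that list was called lower. The part of any of these cell types in the level of *Sat1* was not tested. For *Amd1* and *Smox*, which were lowest in that muscle, the fast glycolytic fiber markers (*Myh4*, *Actn3*, *Pvalb*, *Mylk2*, *Pfkm*, *Tnnt3*) summed to 441594 there and to 671053 to 694887 in the other *mdx5cv* muscles, against 591120 to 785845 in WT. Most of these sums is *Myh4*, and 2 of the 6 markers were called lower with no overlap between the groups, *Actn3* (log2 fold change -0.64) and *Tnnt3* (-0.63). Over all genes tested, 20.1% were called lower and 19.8% had no overlap in that direction. *Pfkm* (-0.28) had no overlap either but was not called. *Myh4* (-0.07), *Pvalb* (-0.13) and *Mylk2* (-0.09) overlapped and were not called. The part of those fibers in *Amd1* and *Smox* was not tested either.

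*Paox* (chr7:140115799-140137224, plus strand), the peroxisomal oxidase, had normalized counts of 47.0, 51.6, 42.0 and 40.3 in WT and 59.3, 43.4, 54.9 and 39.2 in *mdx5cv*, where the range took in all WT values. Its log2 fold change was 0.11 (95% confidence interval -0.30 to 0.51, adjusted p = 0.680). The exons of *Paox* overlap those of *Echs1* on the opposite strand, a gene with mean normalized counts of 831 in WT and 518 in *mdx5cv*. Whether the counting used strand is not stated in the sources used here, and *Paox* is uncertain for that reason. Of its 50-base words, 25.9% (1294) are also in other genes, and 1259 of these are in *Gm19680*. The reads of all these other genes together, 10729 to 13732 a muscle, far exceed the 38 to 64 of *Paox*. The 2 ratios with *Paox* given below carry the same uncertainty.

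The regulators of ODC1 did not pass the threshold. *Oaz1* (chr10:80826656-80829290, plus strand) had normalized counts of 1445, 1985, 1427 and 1391 in WT and 1508, 1530, 1466 and 1259 in *mdx5cv*. WT replicate 2 was well above all others. The log2 fold change of *Oaz1* was -0.10 (95% confidence interval -0.37 to 0.16, adjusted p = 0.533), and its sign turned to 0.25 under equal totals and to 0.016 without WT replicate 2, so that no direction can be given. *Azin1* (chr15:38487427-38519266, minus strand) had 567, 439, 532 and 495 in WT and 634, 519, 668 and 691 in *mdx5cv*, where only *mdx5cv* replicate 2 lay within the WT range. The log2 fold change of *Azin1* was 0.30 (95% confidence interval 0.04 to 0.56, adjusted p = 0.0585). It passed the threshold under equal totals, at 0.66 (adjusted p = 0.0031), in edgeR (adjusted p = 0.0491) and without *mdx5cv* replicate 2 (adjusted p = 0.0206). The antisense gene *Gm49077* overlaps exons of *Azin1* and had mean normalized counts of 0.561 and 1.95.

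Levels were set side by side between genes per kb of annotated exon, which takes gene length out of the normalized count. Division by the whole exon length makes no allowance for stretches shared with other genes. For *Amd1*, 78.1% of the 50-base words are also in another gene, a larger share than for *Oaz1* or *Smox*. How reads with several matches were counted is not given. If they were dropped, the level of *Amd1* per kb is too low, so its rank below is uncertain. In WT muscle *Amd1* was the highest, at 1191 ± 148 per kb (SD, n = 4), followed by *Smox* at 613 ± 197 and *Oaz1* at 611 ± 111, whose ranges overlapped. *Odc1* and *Sms* came next, at 189 ± 38.8 and 179 ± 13.7 per kb, also with overlapping ranges, and then *Azin1* at 81.2 ± 8.78. *Sat1* and *Srm*, at 28.4 ± 4.53 and 25.3 ± 9.14 per kb, and *Paox* and *Amd2*, at 9.21 ± 1.04 and 7.39 ± 2.88, again overlapped as pairs. In *mdx5cv* the order changed at the top and in the middle. *Oaz1* ranked first, at 563 ± 48.6 per kb, above *Amd1* at 332 ± 93.5 in every muscle, and *Smox* followed at 188 ± 55.3 with a range that overlapped those of *Amd1* and of *Odc1* (134 ± 9.14). *Azin1* (100.4 ± 12.2 per kb), *Sat1* (90.8 ± 27.9) and *Sms* (82.6 ± 8.39) could not be separated by their ranges. *Srm* (36.5 ± 4.71 per kb), *Paox* (7.98 to 12.1) and *Amd2* (3.08 ± 2.07) kept the last places, each apart from its neighbours.

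**Figure D2:**
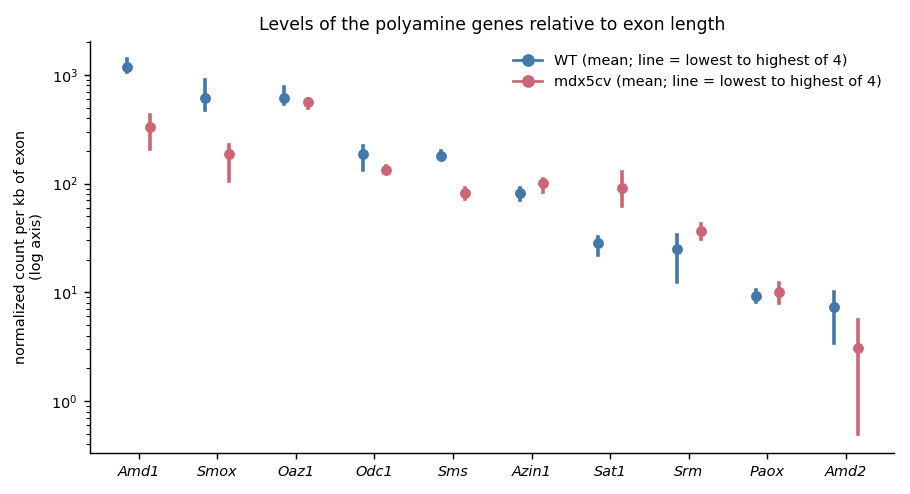
Normalized count per kb of exon (log axis) of the polyamine genes, ordered by the WT mean, with the mean as a point and a line from the lowest to the highest of 4 muscles in each group. *Amd1* is first in WT (1191) and second to *Oaz1* in *mdx5cv* (332 against 563), and *Sat1* is level with *Azin1* and *Sms* in *mdx5cv* only. The rank of *Amd1* may depend on how reads shared with other genes were counted, which is not given.

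Ratios of a pair of genes within each muscle do not depend on the scaling between muscles, apart from the pseudocount. They were taken from the normalized counts with no correction for length, so only their change between the groups is read. Of 8 pairs compared by an exact two-sided permutation test, 6 passed an adjusted p of 0.05. Each of the 6 had p = 0.0286, the smallest that 4 against 4 muscles allow in the exact test, and 0.0381 after adjustment over the 8 pairs. A pair at this smallest p passes the adjustment only because most of the other pairs sit there too. Pairs that share a gene are not independent of each other. All of the 6 except *Odc1* to *Azin1* hold *Amd1*, *Smox*, *Sms* or *Sat1*. Those genes had no overlap between the groups in the same values, so these pairs are not separate support for a change. The ratio of the oxidases *Smox* and *Paox* fell from 54.2 ± 22.4 in WT to 14.8 ± 3.46 in *mdx5cv* (SD, n = 4), with a difference of -1.82 on the log2 scale (SE 0.32). It was 49.2, 35.8, 45.1 and 86.7 in the WT muscles and 13.8, 18.7, 16.2 and 10.6 in the *mdx5cv* muscles, with no overlap. The synthase ratio *Srm* to *Sms* rose from 0.0377 ± 0.0145 to 0.119 ± 0.0230 (SD, n = 4), a log2 difference of 1.72 (SE 0.35). Per kb of exon, *Sms* stayed above *Srm* in both groups, with means of 179 against 25.3 in WT and 82.6 against 36.5 in *mdx5cv*.

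The decarboxylase ratio *Odc1* to *Amd1* rose from 0.153 ± 0.0360 to 0.425 ± 0.177 (SD, n = 4), a log2 difference of 1.42 (SE 0.32), and was highest in *mdx5cv* replicate 4 at 0.680. *Sat1* relative to *Smox*, which sets the acetylating enzyme against the direct oxidase, showed the largest shift of the 8 pairs. It was between 0.0243 and 0.0434 in the WT muscles and at 0.281, 0.306, 0.193 and 0.861 in *mdx5cv* replicates 1 to 4, a log2 difference of 3.34 (SE 0.50). *Sat1* to *Paox*, the enzymes of successive steps, rose from 1.75 ± 0.305 to 5.46 ± 2.67, a log2 difference of 1.52 (SE 0.36). For the regulators, *Odc1* to *Azin1* fell from 1.26 ± 0.204 to 0.736 ± 0.106, a log2 difference of -0.77 (SE 0.15). Per kb of exon the levels of *Odc1* and *Azin1* were 189 and 81.2 in WT and 134 and 100.4 in *mdx5cv*, so that *Odc1* remained the higher of the pair. *Odc1* to *Oaz1* (0.429 ± 0.138 and 0.320 ± 0.0513, log2 difference -0.36, SE 0.30, exact permutation test adjusted p = 0.286) and *Azin1* to *Oaz1* (0.335 ± 0.0778 and 0.441 ± 0.0871, log2 difference 0.41, SE 0.24, exact permutation test adjusted p = 0.163) overlapped between the groups and did not pass.

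**Figure D3:**
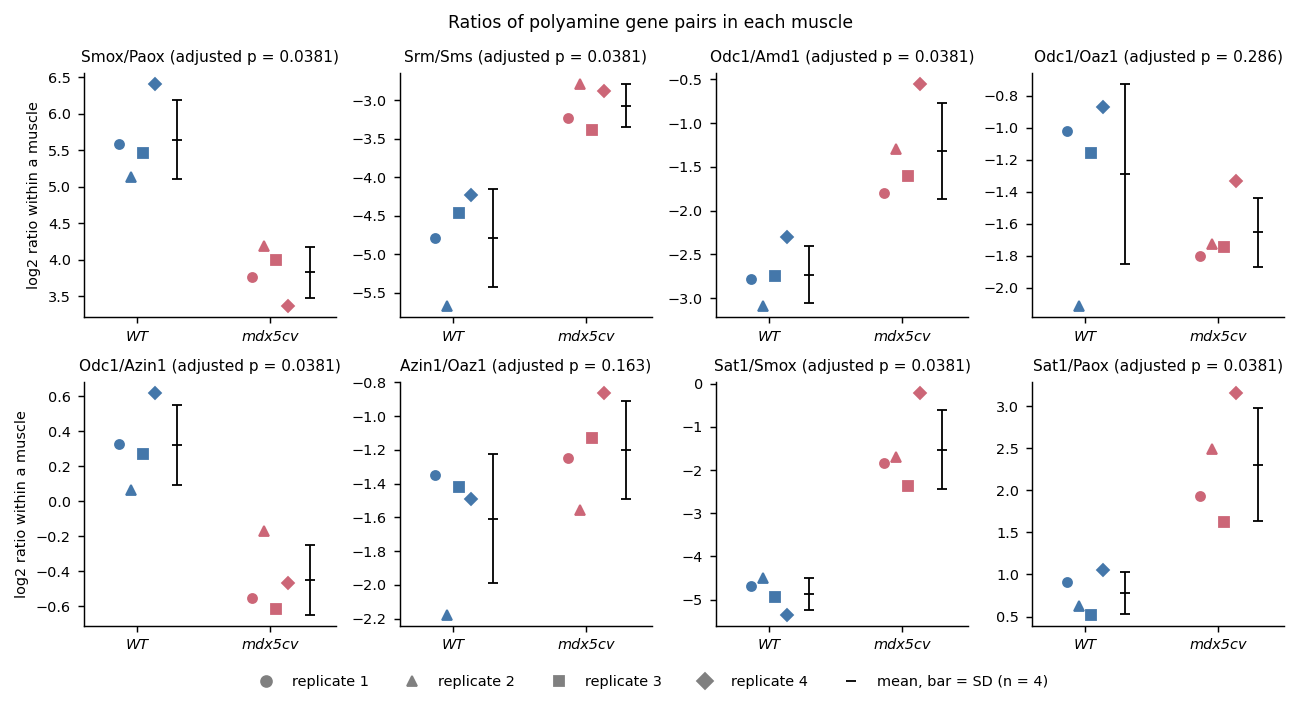
Log2 ratio of the normalized counts (each + 1) of 8 pairs of polyamine genes within each muscle, with 1 marker shape for each replicate, a bar for the mean and SD (n = 4) and the adjusted p of the exact permutation test above each panel. The y axes do not start at 0. The groups separate in 6 pairs and overlap for *Odc1*/*Oaz1* and *Azin1*/*Oaz1*.

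Genes that supply or use the substrates of the pathway, transport polyamines or are tied to it were taken from lists of 34 genes, of which 26 were tested, 7 were called higher and 5 lower, with *Mycl* among the 7. Their median log2 fold change was -0.02, and the share called is again near that of all genes. In the ornithine list, 3 of 6 genes were tested. *Oat*, the mitochondrial aminotransferase that uses ornithine, fell from 1813 ± 359 to 1115 ± 167 (SD, n = 4), or by 0.69 on the log2 scale (SE 0.15, adjusted p = 0.00216). *Gatm*, which releases ornithine in the first step of creatine synthesis, had counts of 43.5, 40.6, 44.2 and 49.8 in WT and 159, 113, 125 and 352 in *mdx5cv*, with no overlap, and its log2 fold change was 1.90 (SE 0.28, adjusted p = 0.00019). *Aldh18a1*, the first enzyme of ornithine and proline synthesis from glutamate, rose from 37.0 ± 11.4 to 77.3 ± 22.6 (log2 fold change 1.04, SE 0.27, adjusted p = 0.00799). *Arg1*, the cytosolic arginase, was too low to test, with 0, 0, 1 and 2 reads in WT and 5, 4, 6 and 19 in *mdx5cv*.

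The methionine cycle and the salvage of methylthioadenosine, the by-product of both synthases, had 8 tested genes, of which 4 were called lower, where 20.1% of all genes were. *Apip* (log2 fold change -0.74, SE 0.15, adjusted p = 0.00197) and *Adi1* (-0.66, SE 0.14, adjusted p = 0.00191), enzymes of late salvage steps, had no overlap between the groups. *Mri1*, the isomerase ahead of them (-0.49, adjusted p = 0.0237), and *Mat2b*, the regulatory subunit of adenosylmethionine synthetase (-0.45, adjusted p = 0.0146), were lower by less. The calls of *Adi1*, *Mri1* and *Mat2b* were lost under equal totals and that of *Mri1* also when WT replicate 1, 3 or 4 or *mdx5cv* replicate 3 was left out. *Mat2a*, the catalytic subunit, was at 1302 ± 38.4 and 1339 ± 99.2 (SD, n = 4), with a log2 fold change of 0.04 (95% confidence interval -0.16 to 0.24). *Mtap*, which opens the salvage route, was at -0.16 (95% confidence interval -0.44 to 0.12).

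Of 5 transport genes, 3 were called higher, where 20.9% of all genes were. *Slc7a1*, a transporter of arginine and ornithine, rose from 32.1 ± 6.99 to 67.5 ± 13.8 (SD, n = 4), or by 1.05 on the log2 scale (SE 0.21, adjusted p = 0.00141). *Atp13a2*, a lysosomal polyamine exporter, rose by 0.55 (SE 0.13, adjusted p = 0.00433) and *Atp13a3*, a related pump, by 0.42 (SE 0.14, adjusted p = 0.0294), and the call of *Atp13a3* was lost in 7 of 20 alternatives. Of the family of Myc, a known activator of *Odc1* transcription, *Myc* was called higher and *Max* was not called. *Myc* had counts of 20.6, 20.8, 26.5 and 32.8 in WT and 35.2, 46.2, 37.8 and 57.5 in *mdx5cv* (log2 fold change 0.79, SE 0.23, adjusted p = 0.0152). *Mycl* had 2, 3, 0 and 3 reads in WT and 21, 17, 10 and 35 in *mdx5cv*. It passed the filter on low values only through its *mdx5cv* muscles, so its call is no support for a change, and its log2 fold change moved from 1.17 to 3.72 with the pseudocount.

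The other lists gave smaller or less certain differences. The antizyme relatives *Oaz2* (1002 ± 208 and 952 ± 177, SD, n = 4) and *Azin2* (27.3 ± 8.25 and 31.3 ± 4.58) had log2 fold changes of -0.07 and 0.23, with adjusted p of 0.757 and 0.483. *Sat2*, a relative of *Sat1*, was at 29.8 ± 4.59 and 26.9 ± 5.74, a log2 fold change of -0.15 (95% confidence interval -0.63 to 0.33). Spermidine is the donor for hypusine, the modified lysine of the translation factor eIF5A. *Eif5a* was at 1441 ± 100 and 1483 ± 87.9, a log2 fold change of 0.04 (95% confidence interval -0.16 to 0.25). *Dhps* and *Dohh*, the enzymes that make hypusine, were at -0.26 (adjusted p = 0.293) and -0.36 (adjusted p = 0.165), and the low-level paralog *Eif5a2* was at -0.54 (adjusted p = 0.243).

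**Figure D4:**
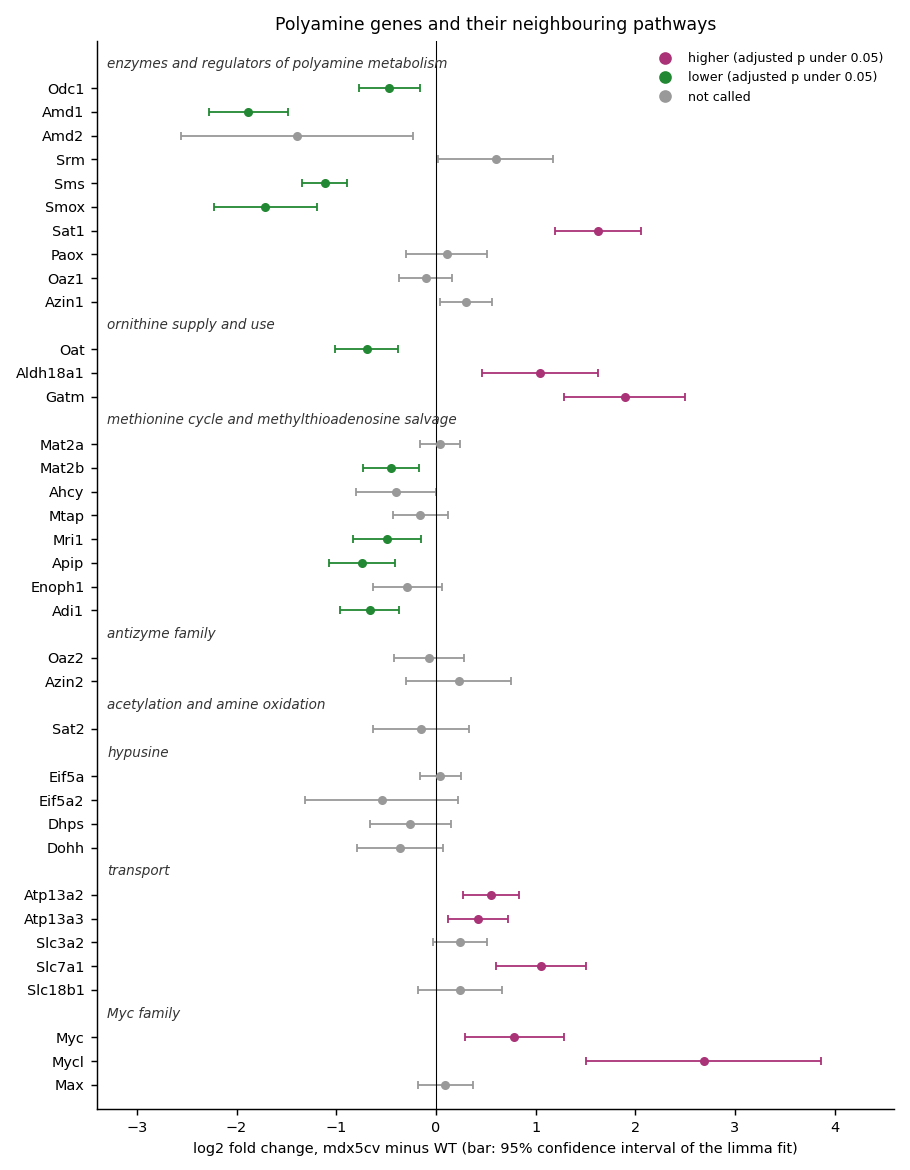
Log2 fold change (*mdx5cv* minus WT) of the 10 polyamine genes and the 26 tested genes of neighbouring pathways, with the 95% confidence interval of the limma fit as a bar and the color giving the call at an adjusted p under 0.05. *Amd1*, *Smox* and *Amd2*, which was not called, lie farthest to the left and *Mycl*, *Gatm* and *Sat1* farthest to the right.

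The genes whose pattern over the 8 muscles was most like that of 4 of the members were found as the root mean square difference of log2 values, each centred on its own mean, among the 7641 genes whose mean normalized count reached 100. The measure takes in the difference between the groups as well as the spread within them. A shared highest or lowest muscle therefore follows in part from how these genes were chosen. Nearest to *Smox* were *Slc38a4* (0.264), an amino acid transporter, *Nt5c1a* (0.303), a cytosolic nucleotidase, and *Rasd2* (0.313). *Slc38a4* had normalized counts of 735, 551, 695 and 1018 in WT and 276, 164, 265 and 159 in *mdx5cv*, so that its highest WT and lowest *mdx5cv* muscle were those of *Smox*. Nearest to *Amd1* were *Otub2* (0.211), *Ccdc85c* (0.217) and *Gdap1* (0.223), with log2 fold changes of -1.96, -1.91 and -1.75. Nearest to *Odc1* were *Rala* (0.115), *Mri1* (0.117) and *Zdhhc5* (0.125), of which *Mri1* is also one of the salvage genes above and, like *Odc1*, was lowest among the WT muscles in replicate 2. Nearest to *Sat1* were *Abr* (0.129), *Dock8* (0.152) and *Tubb5* (0.160). *Abr* had normalized counts of 171, 176, 142 and 183 in WT and 460.4, 447, 371 and 637 in *mdx5cv*, and like *Sat1* was lowest in replicate 3 of each group and highest in *mdx5cv* replicate 4.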

How the data were processed

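Bulk RNA-seq was analysed from 8 TA muscles, 4 WT and 4 *mdx5cv*, assigned by the genotype and number in their labels. The authors deposited a signal per gene, the normalized count, which is the number of reads divided by a size factor for each muscle. The submitters' processing notes name Trim Galore 0.6.4, STAR 2.6.0c, featureCounts, SAMtools 1.9, DESeq2 1.26.0 in R 3.6.2 and the mm10 build. How reads with several matches and the strand were counted is not given in the sources used here. Whole reads (within 0.01) were recovered from 100% of the values and gave 13175524 to 14921057 reads per muscle, which limits precision for *Amd2*, *Srm*, *Paox* and *Sat1* more than for the others.

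The groups were compared with limma 3.58.1 (lmFit, eBayes with a variance trend, two-sided) in R 4.3.3, without covariates, on log2 values of the normalized count + 1. The 13677 genes whose mean normalized count reached 10 were tested, and p-values were adjusted by Benjamini-Hochberg over all of them. Ratios were compared by exact permutation tests in Python 3.11.15 with scipy 1.17.1. All polyamine genes were named, and the other pathway genes and cell type markers follow lists. The members and lists were chosen with earlier results of these data known. edgeR 4.0.16 and DESeq2 1.42.0 on the recovered reads, pseudocounts of 0.1 and 10, other filters and scalings, a replicate block, each muscle left out and the sum of *Amd1* and *Amd2* were the alternatives, and the scripts were tested on simulated data. Coordinates were taken from GENCODE M21 (GRCm38), in which 55141 of the 55401 gene IDs were found with versions ignored. Replicates of a group differed by more than sampling noise, with a chi-square per degree of freedom of 8.59 to 38.4.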

Additional observations from a re-analysis of the deposited data

Results flagged for a closer look

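In 4 of 60 sets of 4 muscles examined, 1 muscle stood apart from the other 3 by Dixon's criterion, and chance gives about 1 in 20 sets. *Smox* in *mdx5cv* replicate 4 was at 8.70 on the log2(normalized count + 1) scale, against 9.67 to 9.80 in the other *mdx5cv* muscles. *Oaz1* in WT replicate 2 was at 10.96, against 10.44 to 10.50 in the other WT muscles. *Mri1* in WT replicate 2 was at 6.54, against 7.06 to 7.13. The log2 ratio of *Odc1* to *Oaz1* in *mdx5cv* replicate 4 was -1.33, against -1.80 to -1.73 in the other *mdx5cv* muscles.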

How the results depend on the processing

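*Amd1*, *Sms* and *Smox* as lower and *Sat1* as higher were called in every alternative run, and the count of polyamine genes called lower, 4, ranged from 3 to 5. The count called higher, 1, became 3 under equal totals and 3 under equal totals without mitochondrial genes (*Srm* and *Azin1* added), 2 in edgeR (*Azin1* added), and 1 to 2 when 1 muscle was left out (2 without WT replicate 4 or without *mdx5cv* replicate 2). The other pathway genes called higher, 7, became 11 under equal totals, and those called lower, 5, became 2 under equal totals and 3 without mitochondrial genes. Equal totals moved the median over all genes, on the log2 scale, from 0.00 to 0.36 and the calls over all genes from 2854 higher and 2743 lower to 5444 and 820, and without mitochondrial genes the calls were 4140 and 1383. Centring on the median gene gave 2435 and 3460. *Oaz1* reversed to 0.25 under equal totals, to 0.11 under equal totals without mitochondrial genes and to 0.016 without WT replicate 2, the highest of its values with 1 muscle left out, of which the lowest was -0.16 (without WT replicate 4). The causes were not tested. With a minimum change of 1 on the log2 scale, the calls over all genes were 1414 higher and 447 lower, against 2202 and 642 with no filter on low values, 729 and 275 with 10 or more normalized counts required in each muscle, where *Amd2* and *Mycl* were not tested, 2255 and 209 under equal totals and 1920 and 582 in DESeq2, which gave an adjusted p for 19094 genes.

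The labels number the muscles 1 to 4 in both groups. Same-numbered muscles correlated at 0.0501, 0.0309, 0.0722 and 0.146 in their deviations from the group means. The highest correlation with another number was 0.0741, 0.0584, 0.0382 and 0.0059. Replicates 1 and 2 thus correlated more with another number, and replicates 3 and 4 more with their own. Whether same-numbered muscles were paired or shared a batch cannot be told from these values. With the replicate number as a block, 2 polyamine genes were called higher (*Azin1* added, adjusted p = 0.0355) and 5 lower (*Amd2* added, adjusted p = 0.0481). The 8 ratios kept their sign with each muscle left out, where 4 against 3 muscles cannot give a p under 0.0571, and 6 of 8 passed with either other pseudocount. Low counts limit *Amd2*, which had 2 to 28 reads a muscle.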
